A study of Homo sapiens with 30 samples.

Results

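The heat shock response genes described here are 10 chaperone and co-chaperone genes, HSPA6, HSPA1A, HSPA1B, HSPA8, HSPH1, HSP90AA1, HSPB1, DNAJB1, DNAJA1 and BAG3. They were picked by symbol, and the choice was made because HSPA6, HSPA1A and HSPA1B were already known to be higher with both overexpressed ANKRD10 isoforms in these libraries. All 10 were found in each count table, among 56303 genes listed in the overexpression and knockdown tables and 60612 in the knockout table, and all 10 passed the filter on low counts in every comparison. RNA-seq was done in 30 libraries of 5637 cells, a human bladder carcinoma line, with 3 libraries per group. One experiment compared the RBPMS knockouts KO1 and KO2 with the wild-type groups WT1 and WT2. A second compared cells overexpressing Flag-tagged ANKRD10-1 or ANKRD10-2, the isoforms of the ankyrin repeat gene ANKRD10, with Vector cells, and another compared siRNA against each isoform (siANKRD10-1 and siANKRD10-2) with the negative control siNC. RBPMS is an RNA-binding protein that acts on splicing, and the comparisons ask how its loss and the ANKRD10 isoforms change gene expression.

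The labels call every library 5637 cells. The results text of the study places ANKRD10-1 overexpression and siANKRD10-2 in RBPMS-knockout cells and the other isoform treatments in cells without the knockout. Each table of isoform treatments holds a single control group, so the cell background and the treatment cannot be told apart there. RBPMS was at 3.57 to 6.14 CPM (read counts scaled to a common library total) in all 9 overexpression libraries and at 4.39 to 5.95 CPM in all 9 knockdown libraries. Against its control RBPMS changed by -0.19 ± 0.13 with ANKRD10-1 and 0.08 ± 0.13 with ANKRD10-2 (log2, SE). It changed by -0.11 ± 0.14 with siANKRD10-1 and 0.03 ± 0.14 with siANKRD10-2, and it passed the test in none of these (adjusted p of 0.472 to 0.894, edgeR). Which of these libraries carry the knockout was not tested. In the knockout table RBPMS was at 40.0 to 42.8 CPM in WT1 against 13.96 to 15.01 in KO1, and at 43.0 to 44.9 CPM in WT2 against 18.7 to 20.7 in KO2. ANKRD10, counted over all its transcripts, was 0.67 ± 0.04 (SE, log2) above Vector with ANKRD10-1 and 0.41 ± 0.05 above it with ANKRD10-2, and it was 0.24 ± 0.06 and 0.25 ± 0.06 below siNC with siANKRD10-1 and siANKRD10-2. In the knockouts ANKRD10 was lower by more, 1.18 ± 0.05 below WT1 in KO1 and 0.76 ± 0.04 below WT2 in KO2. Each sgRNA gives 1 edited population, and nothing in the labels says that the 3 libraries of a group are separate cultures, so the p-values measure the spread between these libraries, which may be technical. At least 9 of 10 epithelial and urothelial markers were above 1 CPM in each table, and they summed to 2974 to 5570 CPM. The summed leukocyte markers were at or under 1.39 CPM and the endothelial markers at 1.1 to 3.0 CPM. The 5 fibroblast markers summed to 49.3 to 57.8 CPM in the overexpression table, with 4 of them above 1 CPM, to 31.9 to 54.04 in the knockout table and to 27.5 to 35.7 in the knockdown table, with 1 of 5 above 1 CPM in each, and their part in the results was not tested. Libraries held 28511029 to 69723937 counts.

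Heat shock proteins hold other proteins in a foldable state. The HSP70 proteins bind exposed stretches of a client and release them in a cycle driven by ATP, J-domain proteins such as DNAJB1 bring the client and start the cycle, and nucleotide exchange factors such as HSPH1 and BAG3 end it. HSP90 proteins take over part of the clients for the last steps of folding, and small heat shock proteins such as HSPB1 hold unfolded clients until the others can act. When unfolded proteins pile up, heat shock factor 1 (HSF1) binds heat shock elements, inverted repeats of a short unit, in the promoters of these genes and raises their transcription.

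The bases before the start of the members show how the elements lie in them. A head to head pair of units was searched as GAANNTTC and a tail to tail pair as TTCNNGAA, each of which reads the same on both strands, in the 250 bases before each RefSeq start (GRCh38.p14), and 13 windows were held for the 10 members. A pair was found in 8 of the 13 windows (61.5%), against 11.6% of all 35116 windows, and counted by gene in 8 of the 10 members and in 3813 of all 27305 genes. The longer run of 3 units, GAANNTTCNNGAA or TTCNNGAANNTTC, which overlaps both pairs, was found in 3 of the 13 windows (23.1%), those of HSPA6, HSPA8 and HSP90AA1, against 0.441% of all windows. HSPH1 and BAG3 held neither form in this window. The following stretches show the match nearest to the start in the genes that the results turn on, with the matched bases in capitals.
HSPA6 (chr1:161524442-161524501, plus strand): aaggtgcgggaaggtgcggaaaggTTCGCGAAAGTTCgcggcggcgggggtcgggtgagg
HSPA1A (chr6:31815411-31815470, plus strand): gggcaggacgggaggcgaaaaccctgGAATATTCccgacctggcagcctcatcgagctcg
HSPA1B (chr6:31827607-31827666, plus strand): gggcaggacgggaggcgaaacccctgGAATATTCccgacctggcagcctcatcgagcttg
HSPA8 (chr11:123062156-123062215, minus strand): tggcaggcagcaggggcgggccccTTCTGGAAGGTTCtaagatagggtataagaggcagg
HSP90AA1 (chr14:102087079-102087138, minus strand): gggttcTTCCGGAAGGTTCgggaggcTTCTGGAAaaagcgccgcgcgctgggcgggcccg
DNAJB1 (chr19:14518411-14518470, minus strand): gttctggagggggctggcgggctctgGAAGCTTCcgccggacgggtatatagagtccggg
DNAJA1 (chr9:33025049-33025108, plus strand): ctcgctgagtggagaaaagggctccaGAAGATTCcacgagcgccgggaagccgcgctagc
The HSPA6 run lay 74 to 62 bases before the start and the pair in HSPA1A 106 to 99 bases before it. In DNAJA1 the pair lay farther out, at 198 to 191 bases. The promoters of HSPA1A and HSPA1B, aligned on the pair, had the same base at 235 of 249 positions. A match is a run of letters and does not show that HSF1 was bound.

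HSPA1A and HSPA1B lie side by side on chromosome 6 (31815464 to 31817946 and 31827735 to 31830255 in GENCODE v29, GRCh38) and encode the same inducible HSP70 protein, so reads can fall on either gene and the split between them is uncertain. HSPA1A held 13.3% to 16.1% of the summed counts of the pair in the overexpression and knockdown tables and 6.11% to 10.3% in the knockout table, and the sum is therefore also given. HSPA6 lies on chromosome 1 (161524540 to 161526910), and its pseudogene HSPA7 on the same chromosome shares sequence with it.

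Before any treatment, the 10 genes spanned a wide range of levels. Per kilobase of counted gene length, HSP90AA1, the inducible cytosolic HSP90, was first in all 4 control groups, at 994 ± 12.7 CPM per kilobase in Vector and 987 ± 26.4 in siNC (SD, n = 3). HSPA6 was last in all 4, at 1.11 ± 0.257 CPM per kilobase in Vector and 0.298 ± 0.141 in WT1. The lengths come from the overexpression table, since the knockout table gives none. Neighbours in this order whose libraries overlapped were DNAJB1 and HSPA1B in WT1, and DNAJB1 with HSPB1 and HSPB1 with BAG3 in Vector. Levels also differed between the control groups of separate experiments. HSPA1B was at 51.98 ± 1.46 CPM in WT2, 189.9 ± 3.70 in siNC and 571.9 ± 7.68 in Vector, and HSPA1A at 3.69 ± 0.236, 31.8 ± 1.72 and 101.1 ± 2.30 CPM. These tables were made separately, so no test was run across them.

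**Figure D1:**
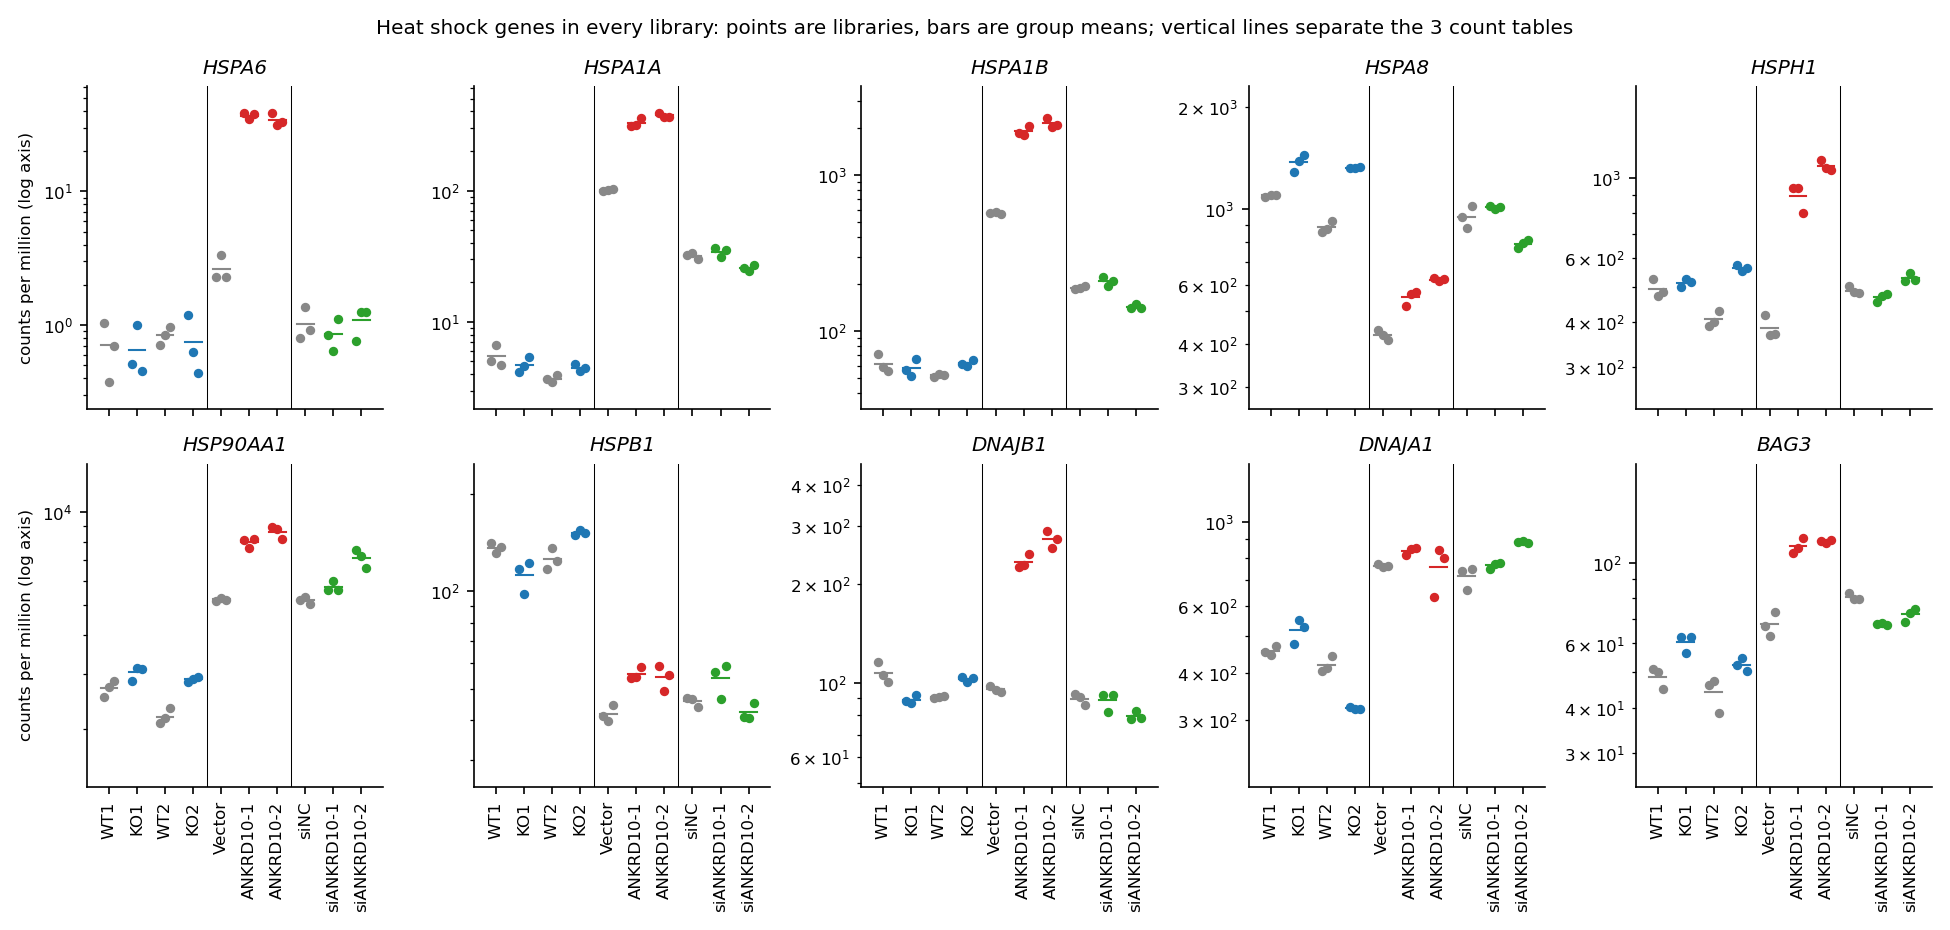
CPM (log axis) of each of the 10 heat shock genes in the 30 libraries, with libraries as points, group means as bars and vertical lines between the knockout, overexpression and knockdown tables. HSPA6, HSPA1A and HSPA1B of both overexpression groups lie far above their 3 Vector libraries, whereas HSPA6 stays at or under 1.36 CPM in every knockout and knockdown library.

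Overexpression of either isoform went with higher levels of the inducible HSP70 genes, the pattern for which the members were chosen, and the values against Vector are therefore given as a description. HSPA6, a strictly inducible HSP70 that is nearly silent in unstressed cells, was at 2.27, 3.34 and 2.29 CPM in the Vector libraries. It was at 38.4, 34.8 and 37.7 CPM with ANKRD10-1 and at 38.4, 31.5 and 32.8 CPM with ANKRD10-2. Every overexpression library stood far above every Vector library, with a fitted log2 fold change of 3.87 ± 0.11 (SE) for ANKRD10-1 and 3.80 ± 0.13 for ANKRD10-2, the largest rise of all genes tested in either comparison. The counts behind these values were 96 to 1822 reads. HSPA7 was listed at 0 in the 3 Vector libraries and at 0.130 to 0.295 CPM in the 6 overexpression libraries.

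HSPA1B, the more highly counted gene of the pair, was at 572, 580 and 564 CPM in Vector. It was at 1858, 1827 and 2078 CPM with ANKRD10-1 and at 2342, 2045 and 2112 CPM with ANKRD10-2, again without overlap. HSPA1A was at 99.3, 100.3 and 103.7 CPM in Vector, at 312, 316 and 359 with ANKRD10-1 and at 391, 364 and 366 with ANKRD10-2. The fitted log2 fold changes with ANKRD10-1 and ANKRD10-2 were 1.79 ± 0.05 and 2.00 ± 0.05 for HSPA1B, and 1.74 ± 0.05 and 1.97 ± 0.05 for HSPA1A. The paralogs thus stood at nearly the same change, and their summed level rose from 673 ± 6.17 CPM in Vector to 2250 ± 162 and 2540 ± 171 CPM (SD, n = 3). By the size of the fitted rise HSPA1B and HSPA1A ranked 2 and 4 of 20457 genes with ANKRD10-1, and 3 and 4 of 20177 with ANKRD10-2.

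The partners of HSP70 followed at smaller folds. HSPH1, an HSP110 protein that exchanges the nucleotide of HSP70, was at 418, 368 and 371 CPM in Vector, at 939, 938 and 801 with ANKRD10-1 and at 1121, 1068 and 1052 with ANKRD10-2. DNAJB1, the heat-inducible J-domain protein of the HSP40 class, was at 97.9, 95.6 and 94.5 CPM in Vector, at 225, 229 and 247 with ANKRD10-1 and at 290, 258 and 275 with ANKRD10-2. Neither gene had an overlap between a treated group and Vector, and their log2 fold changes were 1.26 ± 0.06 and 1.56 ± 0.06 for HSPH1 and 1.33 ± 0.05 and 1.59 ± 0.05 for DNAJB1. BAG3, which couples HSP70 to autophagy, was at 66.9, 62.9 and 73.2 CPM in Vector, at 106.5, 109.7 and 117.2 with ANKRD10-1 and at 114.6, 113.6 and 115.3 with ANKRD10-2. HSPA8, the constitutive HSP70, was higher by a smaller fold, at 412 to 440 CPM in Vector, 517 to 572 with ANKRD10-1 and 613 to 627 with ANKRD10-2.

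HSP90AA1 was at 5165, 5293 and 5199 CPM in Vector, at 8124, 7646 and 8177 with ANKRD10-1 and at 8939, 8802 and 8146 with ANKRD10-2. It made up 67.3% to 68.5% of the counts of the 10 genes in Vector and 59.98% to 62.5% in the overexpression libraries, while the 10 genes together went from 0.768% ± 0.00512 of all counts in Vector to 1.30% ± 0.0370 with ANKRD10-1 and 1.41% ± 0.0492 with ANKRD10-2. HSPB1, the small heat shock protein HSP27, was at 39.7 to 44.4 CPM in Vector and at 49.2 to 58.8 CPM in the overexpression libraries. DNAJA1, a J-domain protein with high basal expression, stood apart from the other members. It was at 773, 759 and 762 CPM in Vector, at 817, 847 and 851 with ANKRD10-1 and at 635, 840 and 804 with ANKRD10-2, whose first library lay below all Vector libraries. Its log2 fold change was 0.18 ± 0.04 for ANKRD10-1 and 0.07 ± 0.08 for ANKRD10-2, with a 95% interval of -0.10 to 0.24 for the latter.

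Among all genes tested against Vector, 3.5% were called higher and 2.81% lower with ANKRD10-1 (edgeR's quasi-likelihood test, Benjamini-Hochberg adjusted p under 0.05), and 10.7% higher and 9.25% lower with ANKRD10-2. At the same threshold all 10 members were higher with ANKRD10-1, and 9 were higher and 1 not called with ANKRD10-2. These counts describe the contrast for which the members were picked and are no evidence of their own. The member that was not called with ANKRD10-2 was DNAJA1, which was called there without the first ANKRD10-2 library. With ANKRD10-1 it was not called without the second ANKRD10-1 library or with all groups in 1 fit, which left 9 members called. Their median log2 fold change was 1.01 and 1.20, against -0.0035 and -0.0055 over all genes tested. Both comparisons use the same 3 Vector libraries.

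**Figure D2:**
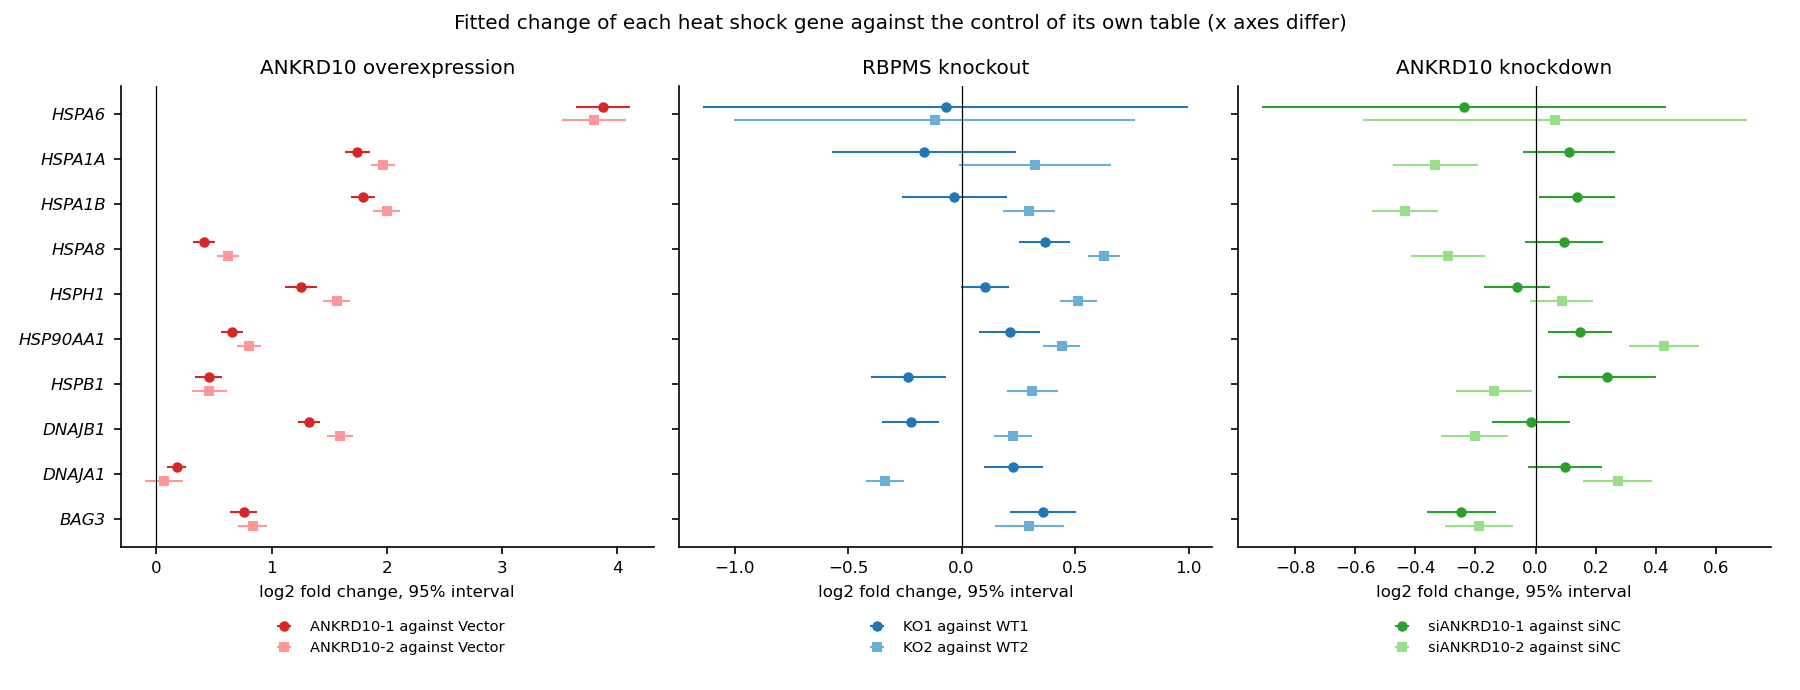
Log2 fold change (edgeR, 95% interval as horizontal bars) of each heat shock gene against the control of its own table, one panel per experiment, with x axes of different widths. In the overexpression panel HSPA6 lies near 3.87 and 3.80 and DNAJA1 near 0, while in the knockout and knockdown panels no fitted change is above 0.63 in size.

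The overexpression groups were compared directly, as ANKRD10-2 against ANKRD10-1 without the Vector libraries, a contrast that did not enter the choice of members. By the text of the study they also differ in cell background, so isoform and RBPMS knockout cannot be told apart in this contrast. ANKRD10, counted over all its transcripts, was 0.27 ± 0.05 lower with ANKRD10-2 (log2, adjusted p = 0.00355, edgeR). HSPH1, DNAJB1, HSPA1A, HSPA1B and HSPA8 were higher with ANKRD10-2, and the other 5 members did not pass the test. Thus 5 of 10 were called higher and 0 lower, against 4.15% higher and 3.1% lower of all 20052 genes tested. The 5 differences were small, 0.21 to 0.31 on the log2 scale. HSPH1 was 0.31 ± 0.06 higher (adjusted p = 0.00362, edgeR), DNAJB1 0.27 ± 0.05 higher (adjusted p = 0.00465, edgeR), and in both genes the lowest ANKRD10-2 library lay above the highest ANKRD10-1 library. HSPA8 (adjusted p = 0.0129), HSPA1A (adjusted p = 0.0204) and HSPA1B (adjusted p = 0.0339) followed in edgeR's test, with 1 overlap between the groups, that of HSPA1B. For HSPA6 the difference was -0.07 ± 0.07, with a 95% interval of -0.23 to 0.08, and for HSPB1 it was 0.0038 ± 0.06, with an interval of -0.13 to 0.14. Without the first ANKRD10-1 library the calls of HSPA1A, HSPA1B and HSPA8 were lost and 2 members stayed called. Without the second, HSPA1A and HSPA1B were lost and 3 stayed, and without the first ANKRD10-2 library HSPA1B was lost. HSP90AA1, which was 0.15 ± 0.05 higher and not called (adjusted p = 0.0889, edgeR), was called by DESeq2 (adjusted p = 0.0309).

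In the RBPMS knockouts and their wild types the inducible HSP70 genes were at a low level. HSPA6 was at 1.04, 0.376 and 0.701 CPM in WT1 and 0.509, 1.01 and 0.452 in KO1, and at 0.710, 0.842 and 0.961 CPM in WT2 and 1.19, 0.630 and 0.441 in KO2. The groups overlapped in both comparisons, and with 20 to 67 reads per library a difference was not detectable at this depth: the 95% intervals of the log2 fold change were -1.14 to 0.998 for KO1 and -1.003 to 0.77 for KO2. HSPA1B was at 70.9, 58.4 and 55.0 CPM in WT1 and 56.6, 51.6 and 66.4 in KO1, which overlapped (log2 fold change -0.03 ± 0.10). It was at 50.3, 53.1 and 52.4 CPM in WT2 and 61.3, 59.3 and 65.3 in KO2, a rise of 0.30 ± 0.05 without overlap (adjusted p = 0.000701, edgeR). HSPA1A gave intervals of -0.57 to 0.24 for KO1 and -0.01 to 0.66 for KO2 and passed the test in neither, while HSPA1A and HSPA1B summed were higher in KO2 by 0.30 (adjusted p = 0.000568, edgeR). Against all 6 wild-type libraries the KO2 rise of HSPA1B was 0.17 (adjusted p = 0.127, edgeR).

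HSPA8, HSP90AA1 and BAG3 were called higher in both knockouts, and the share of all genes called higher in both was not counted. HSPA8 was at 1091, 1106 and 1104 CPM in WT1 against 1288, 1393 and 1444 in KO1, and at 857, 873 and 925 in WT2 against 1326, 1325 and 1331 in KO2. It was higher in both knockouts without overlap, by 0.37 ± 0.05 in KO1 (adjusted p = 0.000253, edgeR) and 0.63 ± 0.03 in KO2 (adjusted p = 2.57e-08, edgeR). HSP90AA1 was at 2523 to 2858 CPM in WT1 and 2845 to 3142 in KO1, which overlapped, and at 2079 to 2327 in WT2 and 2821 to 2937 in KO2, which did not. BAG3 was higher by 0.36 ± 0.07 in KO1 and 0.30 ± 0.07 in KO2. In all, 4 members were higher and 2 lower in KO1, where 17.9% of all 17865 genes tested were higher and 18.2% lower, and 7 were higher and 1 lower in KO2, where 19.3% of 18267 were higher and 19.2% lower. The median log2 fold change of the 10 was 0.04 in KO1 and 0.30 in KO2. HSP90AA1 in KO1 lost its call without the first WT1 library (adjusted p = 0.0712, edgeR), without the second (0.0579) and without the third KO1 library (0.0642). HSPH1 was called higher in KO1 when all 6 wild-type libraries were the control (adjusted p = 0.0214, edgeR).

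DNAJA1, DNAJB1 and HSPB1 were called in opposite directions in the knockouts, and the share of all genes so called was not counted. DNAJA1 was at 455, 445 and 471 CPM in WT1 and 478, 552 and 528 in KO1, and at 404, 412 and 444 in WT2 and 325, 321 and 321 in KO2. It was thus higher in KO1 by 0.23 ± 0.06 (adjusted p = 0.0114, edgeR) and lower in KO2 by 0.34 ± 0.04 (adjusted p = 2.07e-05, edgeR), with no overlap in either. The KO1 call of DNAJA1 was lost without the second WT1 library (adjusted p = 0.0606, edgeR). DNAJB1 was lower in KO1, at 87.1 to 92.5 CPM against 101.1 to 115.8 in WT1, and higher in KO2, at 101.2 to 104.4 against 90.3 to 91.5 in WT2. Its KO1 libraries spanned the WT2 range, and its KO2 libraries lay within the WT1 range. HSPB1 was lower in KO1, at 98.3 to 122 CPM against 131 to 141 in WT1, and higher in KO2, at 149 to 155 against 117 to 137 in WT2. The KO1 call of HSPB1 was near the threshold (adjusted p = 0.03, edgeR), and it was lost when any of 5 libraries was left out, namely each WT1 library or the first or second KO1 library (adjusted p of 0.0525 to 0.0978, edgeR). Against all 6 wild-type libraries HSPB1 in KO1 was at -0.17 and not called (adjusted p = 0.0628, edgeR). DNAJB1 lost its KO1 call without the first WT1 library (adjusted p = 0.0524, edgeR). It kept its direction against all 6 wild-type libraries in both knockouts and was called in neither (adjusted p = 0.283 for KO1 and 0.29 for KO2, edgeR).

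The difference between the knockout effects was tested over the 12 libraries. KO1 was lower than KO2 relative to its own wild type for HSPB1 (-0.55 ± 0.10, adjusted p = 0.000647, edgeR), DNAJB1 (-0.45 ± 0.07, adjusted p = 0.000112, edgeR), HSPH1 (-0.42 ± 0.06, adjusted p = 0.000129, edgeR), HSPA8 (-0.26 ± 0.06, adjusted p = 0.00484, edgeR) and HSP90AA1 (-0.23 ± 0.08, adjusted p = 0.0422, edgeR), and higher for DNAJA1 (0.56 ± 0.07, adjusted p = 3.41e-05, edgeR). That was 1 member higher and 5 lower of 10, against 11.2% higher and 12.1% lower of all 19189 genes tested. HSPH1, whose KO1 value against WT1 was 0.10 ± 0.05 and not called, was higher in KO2 by 0.51 ± 0.04, at 554 to 575 CPM against 390 to 429 in WT2. The call of HSP90AA1 was lost when any of 8 libraries was left out (the second or the third of WT1, the first of KO1, the first or second of WT2, or any of KO2), with adjusted p of 0.0515 to 0.111. HSPA1B (-0.33 ± 0.13) was not called by edgeR (adjusted p = 0.0776) but was by DESeq2 (adjusted p = 0.046). BAG3 differed by 0.06 ± 0.10, with an interval of -0.16 to 0.27. The wild-type groups themselves were not at the same level, since HSP90AA1 was at 2702 ± 169 CPM in WT1 and 2189 ± 127 in WT2, and HSPA8 at 1100 ± 8.10 and 885 ± 35.6 CPM (SD, n = 3). The WT1 mean was also above that of WT2 for DNAJB1 (107.7 ± 7.45 and 90.9 ± 0.608 CPM) and HSPH1 (493 ± 27.7 and 407 ± 20.1). The same held for DNAJA1 (457 ± 13.5 and 420 ± 21.1) and HSPB1 (136.6 ± 5.15 and 126.0 ± 9.71). In the knockouts HSP90AA1 was at 3036 ± 165 CPM in KO1 and 2883 ± 58.5 in KO2, and HSPA8 at 1375 ± 79.4 and 1327 ± 2.92 CPM. The KO1 mean was thus above that of KO2 for HSP90AA1 and HSPA8, as it was for DNAJA1, and below it for HSPB1, DNAJB1 and HSPH1. The part of the wild-type gap in the difference was not tested.

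**Figure D3:**
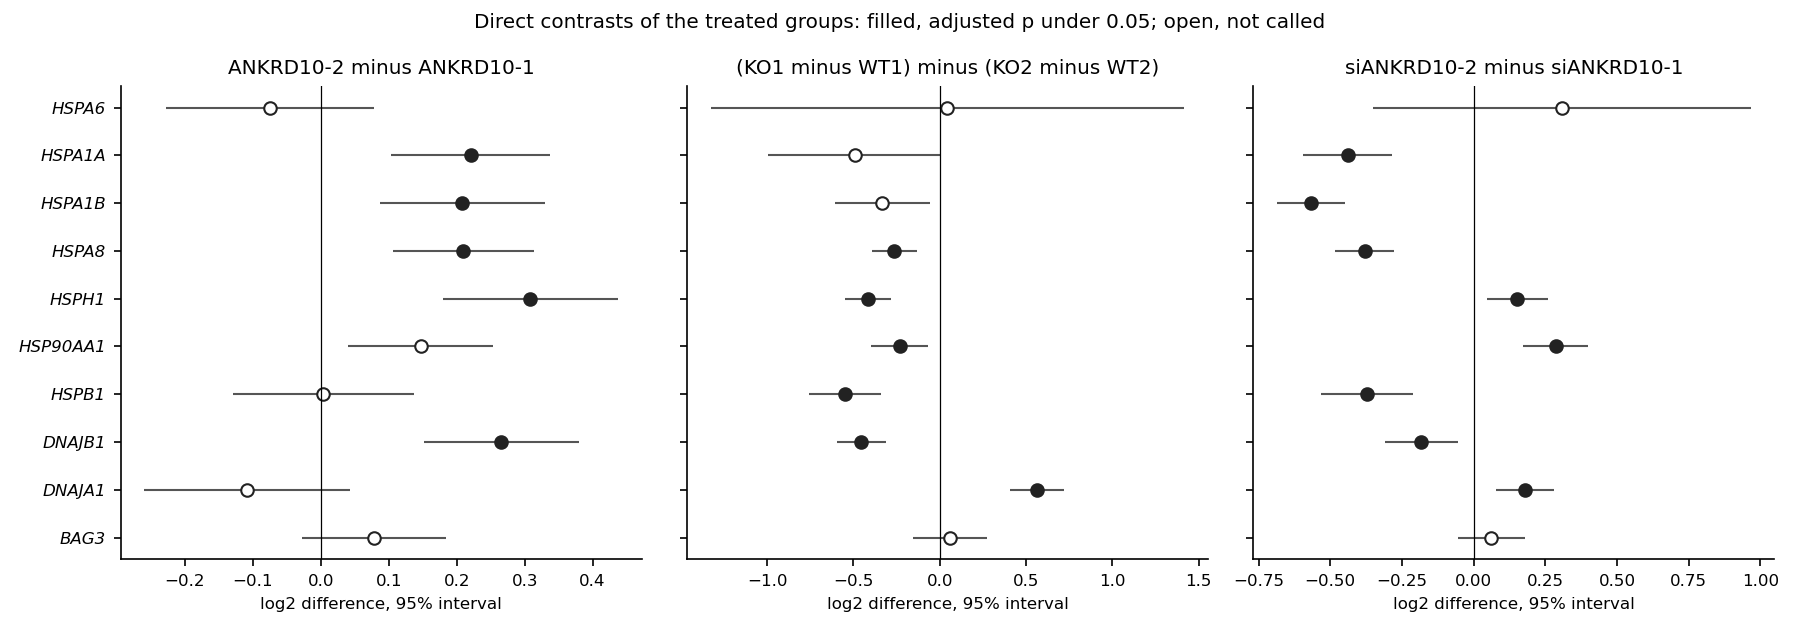
Log2 difference with its 95% interval (edgeR) for each heat shock gene in the 3 direct contrasts of treated groups, with filled points for adjusted p under 0.05 and x axes of different widths. ANKRD10-2 lies above ANKRD10-1 in 5 filled points, 5 filled points lie below 0 and that of DNAJA1 above it in the knockout contrast, and HSPA1B lies lowest in the siRNA contrast at -0.57.

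With siANKRD10-1 a single member of the 10 passed the test. BAG3 was at 67.9, 68.5 and 67.3 CPM against 82.8, 79.4 and 79.6 in siNC, and it was lower by 0.25 ± 0.05 without overlap (log2, adjusted p = 0.00669, edgeR). Thus 0 members were higher and 1 lower, against 5.08% higher and 5.52% lower of all 18785 genes tested. HSPB1 (0.24 ± 0.08, adjusted p = 0.0571, edgeR) and HSP90AA1 (0.15 ± 0.05, adjusted p = 0.0725, edgeR) lay near the threshold. DESeq2 called HSP90AA1 as well (adjusted p = 0.0156), and without the second siANKRD10-1 library HSPB1 (adjusted p = 0.00149, edgeR) and HSPA1B (adjusted p = 0.0363, edgeR) were called higher, as HSPA8 was without the third siNC library (adjusted p = 0.0429, edgeR). HSPA6 was at 0.802, 1.36 and 0.915 CPM in siNC, 0.848, 0.639 and 1.11 with siANKRD10-1 and 0.765, 1.26 and 1.24 with siANKRD10-2. These 20 to 44 reads per library overlapped in full, and the 95% intervals were -0.91 to 0.43 and -0.57 to 0.70 on the log2 scale.

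With siANKRD10-2 the inducible pair fell. HSPA1B was at 187, 189 and 194 CPM in siNC and 141, 148 and 141 with siANKRD10-2, lower by 0.43 ± 0.05 (adjusted p = 4.09e-07, edgeR). HSPA1A was at 32.3, 33.2 and 29.9 CPM in siNC and 25.5, 24.5 and 27.2 with siANKRD10-2, lower by 0.33 ± 0.07 (adjusted p = 0.000348, edgeR). Neither overlapped. HSPA8, DNAJB1 and BAG3 also fell, by 0.29 ± 0.06, 0.20 ± 0.05 and 0.19 ± 0.05 on the log2 scale. HSP90AA1 went the other way, from 5199, 5305 and 5030 CPM in siNC to 7521, 7200 and 6597, a rise of 0.43 ± 0.06 (adjusted p = 1.21e-06, edgeR), and DNAJA1 rose by 0.27 ± 0.06. The count was 2 members higher and 5 lower of 10, against 17.6% higher and 18.7% lower of all 18924 genes tested. BAG3 lost its call without the first siANKRD10-2 library (adjusted p = 0.0644, edgeR), and HSPB1 (-0.14 ± 0.06, not called) was called lower without the third (adjusted p = 0.032, edgeR). Both siRNA comparisons use the same 3 siNC libraries.

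In the direct contrast of the siRNAs, siANKRD10-2 was below siANKRD10-1 for HSPA1B by 0.57 ± 0.06 (adjusted p = 6.77e-08, edgeR), HSPA1A by 0.44 ± 0.08, HSPA8 by 0.38 ± 0.05, HSPB1 by 0.37 ± 0.08 and DNAJB1 by 0.18 ± 0.06 on the log2 scale. It was above it for HSP90AA1 (0.29 ± 0.05), DNAJA1 (0.18 ± 0.05) and HSPH1 (0.15 ± 0.05). This made 3 higher and 5 lower of 10, against 18.2% higher and 18.8% lower of all 18832 genes tested. By the text of the study these groups also differ in cell background, so siRNA and RBPMS knockout cannot be told apart here. Without the first siANKRD10-1 library 5 members stayed called, and HSPH1, DNAJB1 and DNAJA1 lost their calls (adjusted p of 0.0547 to 0.144, edgeR). DNAJB1 also lost its call without the third siANKRD10-1 library and without the first or the third siANKRD10-2 library, and HSPH1 without the second siANKRD10-2 library. HSPA6 gave 0.31 ± 0.32, with an interval of -0.35 to 0.97.

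Other genes of the heat shock network were described from lists by function. Of 125 network genes outside the members, 45 were higher and 0 lower of 114 tested with ANKRD10-1, and 55 higher and 6 lower of 115 with ANKRD10-2. Over all genes tested, 3.5% were higher and 2.81% lower with ANKRD10-1, and 10.7% and 9.25% with ANKRD10-2. Of the other heat-induced genes, 20 of 23 were higher with ANKRD10-1 and 21 of 23 with ANKRD10-2, with a median log2 fold change of 0.35 and 0.51, and of the other HSP90 family genes 3 of 3 and 2 of 3 were higher. ZFAND2A, an arsenite- and heat-inducible zinc finger gene, was higher by 1.12 ± 0.11 and 1.14 ± 0.11, and CHORDC1, an HSP90 co-chaperone, by 0.65 ± 0.05 and 0.84 ± 0.05. With siANKRD10-2, 0 of 22 of these heat-induced genes were higher and 10 lower, against 17.6% higher and 18.7% lower of all genes. The whole network went both ways there, with 19 higher (17%) and 33 lower (29.5%) of 112 tested. CHORDC1 fell there by 0.93 ± 0.06 (adjusted p = 4.21e-12, edgeR). The HSP90 and HSP70 co-chaperones, the list that holds CHORDC1, had 6 higher and 5 lower of 19 tested with siANKRD10-2. With siANKRD10-1, 3 of 22 heat-induced genes were higher and 0 lower, against 5.08% higher and 5.52% lower of all genes. Of the whole network, 13 were higher and 1 lower of 112. In KO1 12 of 22 heat-induced genes were higher (54.5%, against 17.9% of all genes) and 5 lower (22.7%, near the 18.2% of all genes), and in KO2 13 were higher and 1 lower, where 19.3% and 19.2% of all genes were. Of the whole network, 48 were higher and 16 lower of 112 in KO1, and 51 higher and 14 lower of 111 in KO2. HSF1, the factor that drives the response, had fitted values of 0.21 ± 0.10 with ANKRD10-1 and 0.25 ± 0.11 with ANKRD10-2 and was called with neither. The lists were drawn up with results of these libraries known, and the counts against Vector come from the contrast that chose the members.

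**Figure D4:**
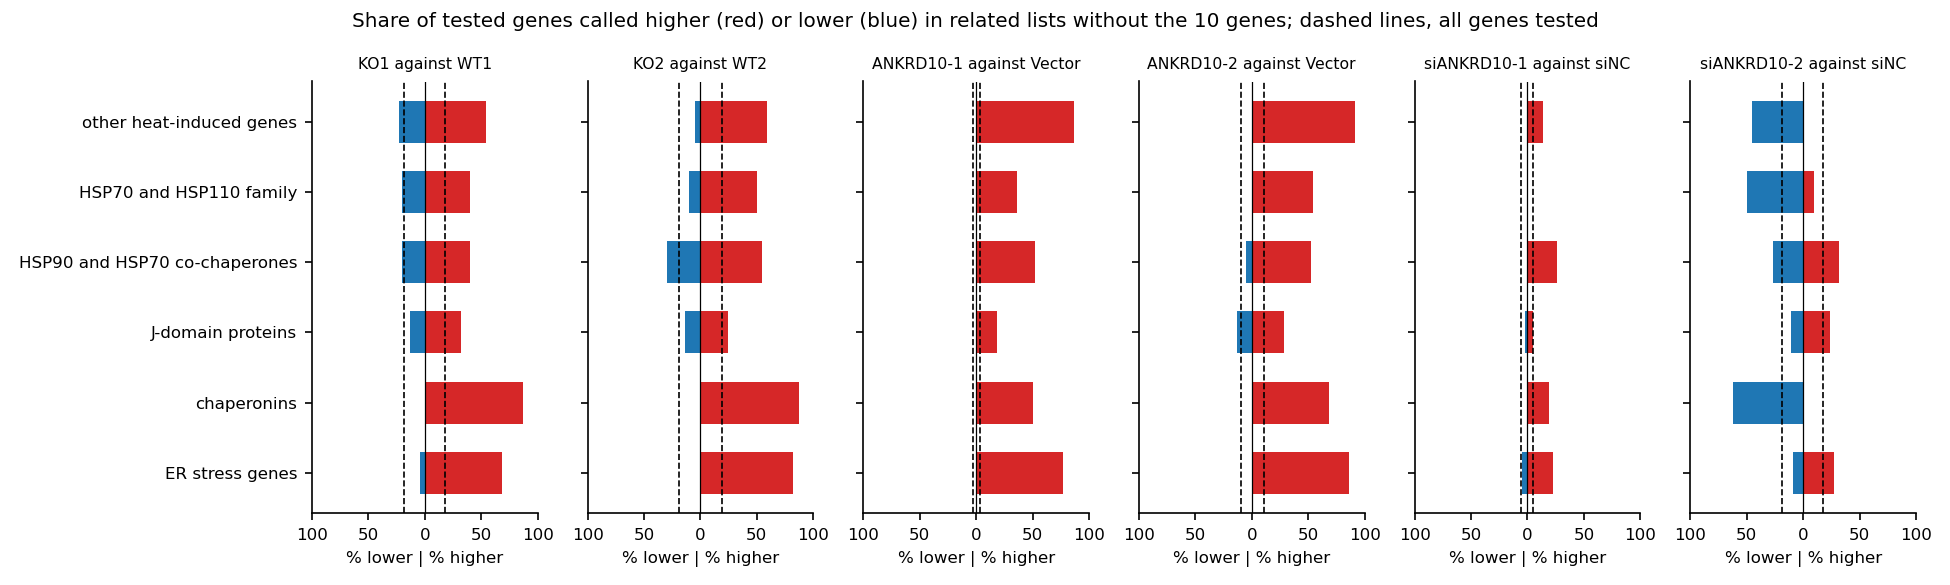
Share of tested genes called higher (red, to the right) or lower (blue, to the left) in 6 lists of related genes outside the 10 members, in each comparison with a control, with dashed lines at the shares over all genes tested. Other heat-induced genes reach 20 and 21 of 23 higher with ANKRD10-1 and ANKRD10-2 and 10 of 22 lower with siANKRD10-2.

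The genes whose pattern over the 9 overexpression libraries was most like the mean standardized log2 CPM of HSPA6, HSPA1A and HSPA1B were searched among 15658 genes outside the members. The 5 highest Pearson correlations were those of HERPUD1 (0.991) and PPP1R15A (0.986), both known from endoplasmic reticulum stress, ZFAND2A (0.991), HSP90B1 (0.989), the HSP90 of the endoplasmic reticulum, and DNAJA4 (0.986), a J-domain protein. Among the other members, DNAJB1 had 0.994, HSP90AA1 0.989, BAG3 0.985, HSPH1 0.978, HSPA8 0.953, HSPB1 0.949 and DNAJA1 0.366. The 9 libraries share 1 table and fall into Vector and overexpression groups, so the correlations mostly restate the gap between these groups and are given as a description.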

How the data were processed

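RNA-seq was analysed in 30 libraries of 5637 cells, grouped by their titles. The authors deposited 3 tables of raw read counts per gene without normalization. Per the labels and the processing notes of the submitters, stranded mRNA libraries were used, with Trimmomatic 0.36, featureCounts of Subread 1.5.1 and GRCh38. The methods of the study also name Trimmomatic, beside Cutadapt, HISAT2 and StringTie, but not featureCounts. The knockout table lists Ensembl identifiers, of which 60401 of 60612 were given a symbol. The deposited gene lengths were used for values per kilobase. No column of per-sample values was left unused.

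Counts were tested with edgeR 4.0.16 in R 4.3.3: filterByExpr (minimum count 10, minimum total 15), TMM, the quasi-likelihood test with only the compared groups in each fit, p-values adjusted by Benjamini-Hochberg across every gene tested, and a threshold of 0.05. A prior count of 0.125 entered the log2 fold changes. Simulated data with known changes were recovered before use. Alternatives were DESeq2 1.42.0, RLE factors, no filter, a replicate block, all groups in 1 fit, paralogs summed, all wild-type libraries as control, and each library left out.

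The members and all gene lists were chosen with earlier results of these data known. Beside the members, the rule for named genes took RBPMS, ANKRD10, up to 3 rises and 3 falls per comparison among listed genes with a mean of at least 50 counts, and 5 genes by likeness. HSF1 and, in overexpression, CHORDC1 were named outside that rule, after their values were seen. Replicate numbers were not used to pair the libraries, since in no comparison did all 3 same-numbered pairs correlate above 0.1. Sequences come from RefSeq windows of GRCh38.p14, and all 10 members matched. Coordinates of genes come from GENCODE v29. Depth was 31736779 to 47493499 counts per overexpression library, 44593108 to 69723937 per knockout library and 28511029 to 32784584 per knockdown library. Protein sequences were not used here.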

Additional observations from a re-analysis of the deposited data

Results flagged for a closer look

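The effects of the RBPMS knockouts differed by the test of the difference itself, KO1 against WT1 minus KO2 against WT2, for 6 of the 10 heat shock genes (edgeR, adjusted p under 0.05). Of these 1 was higher and 5 lower, against 11.2% higher and 12.1% lower of all 19189 genes tested. The log2 difference was -0.26 for HSPA8, -0.42 for HSPH1, -0.23 for HSP90AA1, -0.55 for HSPB1 and -0.45 for DNAJB1, and it was 0.56 for DNAJA1. That of HSP90AA1 was near the threshold and was lost in 8 of the 12 fits that left out 1 library, with adjusted p of 0.0515 to 0.111 (edgeR). The mean CPM of WT1 was above that of WT2 for all 6 genes, and that of KO1 was above that of KO2 for HSPA8, HSP90AA1 and DNAJA1. Each knockout is 1 edited population with its own wild-type group, so the sgRNA, the population and the control cannot be told apart. Groups of 3 libraries were not examined for outlying samples.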

How the results depend on the processing

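Of 1141 values of the 10 genes under the alternatives, 1045 kept their direction and side of the threshold, or moved by less than 1 SD against Vector. With RLE factors all 90 did. Some values changed sign, each against a main value that was not called. In KO1 against all wild-type libraries these were HSPA1A at 0.095 (-0.17 in the main fit) and HSPA1B at 0.086. The others were HSPA6 at -0.020 in the knockout difference with paralogs summed, and HSPB1 in ANKRD10-2 against ANKRD10-1 at -0.0055 without filterByExpr. With siANKRD10-1, where 1 member was called, DESeq2 called 2, no filter 3 and all groups in 1 fit 2. Without the filter HSPB1 in KO1 (adjusted p = 0.0525, edgeR) and HSP90AA1 in the knockout difference (adjusted p = 0.104, edgeR) were no longer called, and against all wild-type libraries HSPB1 in KO1 was not either (adjusted p = 0.0628, edgeR). The causes were not tested.

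Leaving out 1 library at a time gave 3 to 5 called members in KO1 (3 without the first or the second WT1 library), 2 to 6 in ANKRD10-2 against ANKRD10-1, 1 to 3 with siANKRD10-1 and 5 to 8 between the siRNAs. The genes called were 700 to 1549 for ANKRD10-1 (under 1291 by over 1.5 times without the first or second Vector or ANKRD10-1 library), 2617 to 3533 for ANKRD10-2 (against 4017, lowest without the first or second Vector library), 694 to 1396 for ANKRD10-2 against ANKRD10-1 (against 1455, moving by over 1.5 times when any single ANKRD10-1 library was left out, or the third ANKRD10-2 library) and 949 to 2430 with siANKRD10-1 (against 1991, likewise without the first or second siNC or the first or the third siANKRD10-1 library). Log2 fold changes that changed sign ranged from -0.51 to 0.31 (HSPA6), -0.28 to 0.0066 (HSPA1A) and -0.14 to 0.077 (HSPA1B) in KO1, from -0.60 to 0.16 for HSPA6 in KO2 and from -0.39 to 0.53 in the knockout difference. They ranged from -0.0049 to 0.19 for DNAJA1 with ANKRD10-2, from -0.059 to 0.068 (HSPB1) and -0.19 to 0.0032 (DNAJA1) in ANKRD10-2 against ANKRD10-1, from -0.47 to 0.0080 (HSPA6) and -0.052 to 0.045 (DNAJB1) with siANKRD10-1, and from -0.095 to 0.31 for HSPA6 with siANKRD10-2. HSPA1B in the knockout difference was called without the third WT1 (adjusted p = 0.0416, edgeR) or the third KO1 library (adjusted p = 0.0104, edgeR).

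The replicate numbers were not taken as pairs in the main fits, and pairing was neither shown nor excluded. A replicate block moved the genes called from 4017 to 4766 for ANKRD10-2 against Vector, where each of the 3 ANKRD10-2 libraries correlated best with the Vector library of its own number, a hint from the data and not the design, and from 1991 to 2778 with siANKRD10-1. There the members called went from 1 to 3, with HSP90AA1 (adjusted p = 0.0208, edgeR) and HSPB1 (adjusted p = 0.0185, edgeR) higher. Between the siRNAs they went from 8 to 6, without HSPH1 (adjusted p = 0.0594, edgeR) and DNAJB1 (adjusted p = 0.0515, edgeR). HSPB1 in ANKRD10-2 against ANKRD10-1 was at -0.00012 with the block. No other member's call changed with the block.

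Depth limits HSPA6 outside the overexpression table, with 20 to 67 reads per library.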

Other observations

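Further groups of genes outside the heat shock members moved in these comparisons. Of the chaperonins, the ring-shaped and prefoldin chaperones that fold actin, tubulin and mitochondrial proteins, 14 of 16 were higher and 0 lower in each knockout, with a median log2 fold change of 0.32 in KO1 and 0.34 in KO2, where 17.9% and 19.3% of all genes tested were higher. With ANKRD10-1 and ANKRD10-2, 8 and 11 of 16 were higher and 0 lower, where 3.5% and 10.7% of all genes were higher. With siANKRD10-2, 0 of 16 were higher and 10 lower (median -0.21, with 18.7% of all genes lower), and with siANKRD10-1, 3 were higher and 0 lower (5.08% of all genes higher). Of 22 genes of endoplasmic reticulum stress, 17 were higher with ANKRD10-1 (77.3%, against 3.5% of all genes) and 19 with ANKRD10-2 (86.4%, against 10.7%), and 15 were higher in KO1 (68.2%, against 17.9%) and 18 in KO2 (81.8%, against 19.3%), with 1 lower in KO1 and 0 in the other comparisons named. DDIT3, a transcription factor of this response, was higher by 1.38 ± 0.06 with ANKRD10-1 and 1.32 ± 0.06 with ANKRD10-2 (log2, SE). HMOX1, the heme oxygenase induced by oxidative stress, was higher by 1.27 ± 0.16 and 1.2 ± 0.16. MT2A, a metallothionein, was higher by 0.59 ± 0.06 with siANKRD10-1, by 0.65 ± 0.06 with siANKRD10-2 and by 0.60 ± 0.08 in KO1 and 1.25 ± 0.07 in KO2.

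HSPB8, a small heat shock protein that works with BAG3, was higher in KO2 by 4.24 ± 0.44 (log2, adjusted p = 1.2e-05, edgeR), at a mean of only 75 counts per library. In KO1 it was at -0.72 ± 0.90 and not called, at a mean of 15 counts, and with siANKRD10-2 it was lower by 1.72 ± 0.49 (adjusted p = 0.00744, edgeR), at a mean of 13 counts. BAG2 was higher by 0.67 ± 0.14 in KO1 (adjusted p = 0.00287, edgeR) and 1.00 ± 0.09 in KO2 (adjusted p = 2.84e-06, edgeR). DNAJC6, a J-domain protein of clathrin uncoating, was lower in KO1 by 1.97 ± 0.22 (adjusted p = 4.56e-05, edgeR), and in KO2 it was at -0.37 ± 0.18 and not called (adjusted p = 0.135, edgeR).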
